A study of Rattus norvegicus with 20 samples.

Results

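The genes of fatty acid uptake and oxidation comprised 35 genes, chosen by name with earlier results of these data known. They were described across the 4 groups of a study of the right ventricle of the rat heart. All 35 were measured, by 49 probe sets (a probe set is the group of probes on an array that reads 1 transcript) out of 31042, which read 14217 named genes in all. A probe set was counted for a member when its only gene symbol in the platform annotation was that member's, and each gene was represented by its brightest probe set, the one with the highest mean log2 signal over the 20 arrays. By step, 5 members act in uptake, 2 in activation or its reverse, 6 in the carnitine shuttle, 14 in beta-oxidation, 3 in electron transfer and 5 in the control of flux.

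The animals were male Sprague Dawley rats of about 350 g. In the PE (pulmonary embolism) groups, polystyrene microspheres of 25 micron, at 2000000 per 100 g body weight in 0.01% Tween-20, were injected into the right jugular vein, from which they lodge in the vessels of the lung and load the right ventricle; vehicle rats received 0.01% Tween-20. Hearts were excised at 6 weeks and perfused with buffer to clear blood, and each right ventricle was cut into a base piece, called the outflow tract, and an apex piece. The PE outflow, PE apex, vehicle outflow and vehicle apex groups held 5 Affymetrix arrays each, numbered as biological replicates 1 to 5. No allele or second agent was named for any group. The RNA came from whole pieces of ventricle, so that in these bulk samples fewer cells of a type and less RNA per cell cannot be told apart.

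The heart draws most of its energy from fatty acids. They are released from lipoproteins at the vessel wall, taken up by transporters and binding proteins, and joined to coenzyme A; the carnitine shuttle then carries the acyl group into the mitochondrion, where beta-oxidation removes acetyl-CoA units and hands electrons to the respiratory chain through the electron transfer flavoprotein. Malonyl-CoA, which inhibits the entry step, and pyruvate dehydrogenase kinase set how much fat is burned relative to glucose. In the adult heart many of these genes are targets of the nuclear receptors Ppara and Esrra and of their coactivator Ppargc1a.

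Among the 20 arrays, PE outflow replicate 2 stood apart. Its ratio of GAPDH signal at the 3′ over the 5′ end, a measure of RNA and labelling quality, was 6.12, against 1.71, 1.70, 2.20 and 2.34 on PE outflow replicates 1, 3, 4 and 5 and 1.38 to 1.83 on the other 15 arrays. Its array weight (the reliability limma assigns to an array) was 0.207, the lowest of the 20. The ratios of PE outflow replicates 4 and 5 also lay above those of the 15 arrays of the other groups. The counts of members called in comparisons with PE outflow are given below with and without replicates 2, 4 and 5. Counts and fold changes of the marker lists, the other fatty acid genes and the regulators are given with all 5 arrays only. So are most fold changes of single members. Cardiomyocyte markers were bright in all groups: Myh6, the alpha myosin heavy chain of the adult rodent ventricle, averaged 32700 ± 16408 in PE outflow and 47722 ± 4657 in vehicle outflow (signal in arbitrary units, mean ± SD, n = 5 each).

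In the outflow tract, 32 of the 35 genes were lower in PE than in vehicle rats, 1 (Crot) was higher, and 2 (Angptl4 and Ucp2) did not pass the test; the direction of Fabp3 and Cpt1a, both called lower, turned when arrays were centred on cardiomyocyte markers. A gene was called when its p-value from limma's moderated test on log2(signal + 16), adjusted by the Benjamini-Hochberg method over all probe sets, was below 0.05. By the same rule 18% of all 14217 genes were lower and 26.3% higher, so the count of members lower was well above that background and the count higher was below it. Since the members were chosen with earlier results of these data known, these counts are a description and not an independent test. The median log2 fold change, PE minus vehicle, was -1.58 over the members and 0.10 over all genes. For 30 members every PE outflow array lay below every vehicle outflow array, which held for 12.7% of all genes, and for 1 member every PE array lay above, which held for 18.8%.

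**Figure D1:**
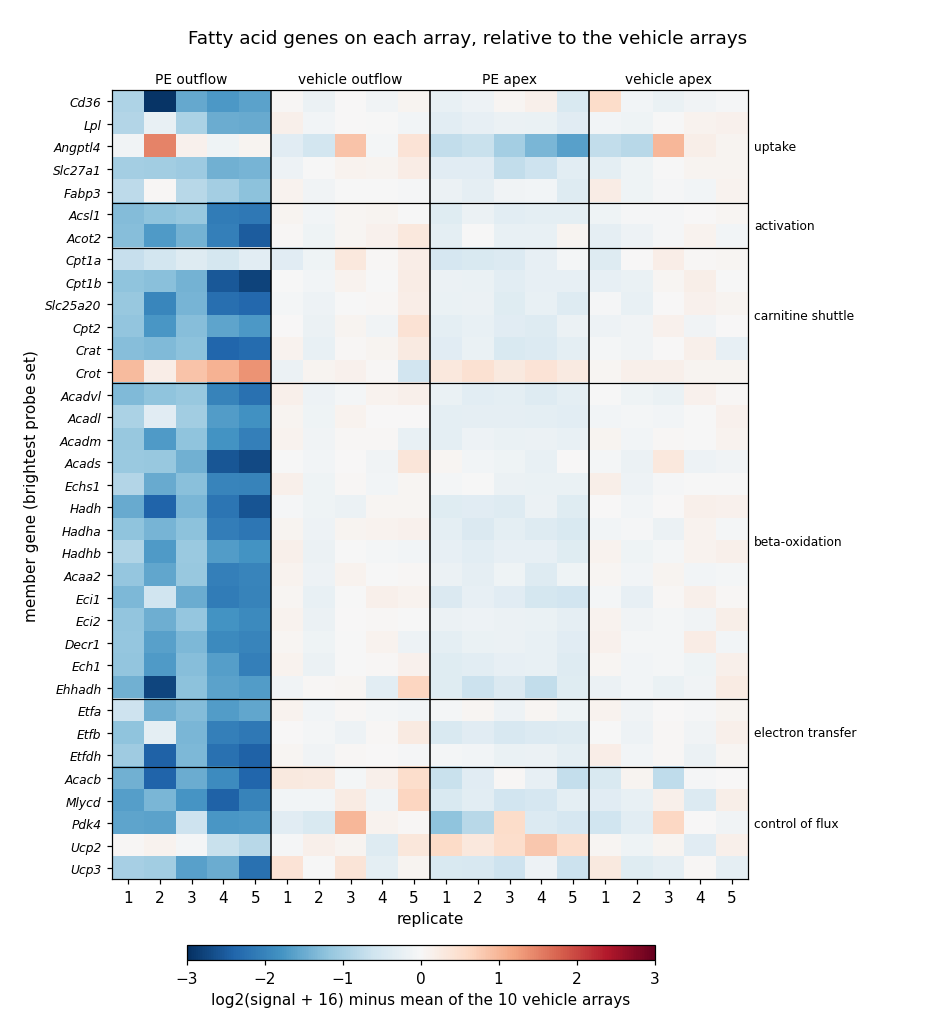
Log2(signal + 16) of the 35 members (rows, grouped by step) on each of the 20 arrays (columns, by group and replicate), minus the mean of the 10 vehicle arrays for that gene. Blue marks lower and red higher values. The PE outflow columns are blue for most members, Angptl4, Crot, Ucp2 on 3 arrays and Fabp3 on replicate 2 being the exceptions, while the PE apex columns are pale.

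The map of members by array shows that the lower signals extended over all 5 PE outflow arrays and all steps of the pathway. Replicates 4 and 5 were both lower than replicates 1 and 3 for 31 of the 35 members.

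Uptake: of the 5 members, 4 were lower in PE outflow and 1 was not called. Slc27a1, a fatty acid transport protein that also activates what it carries, gave signals of 1219.7, 1207, 1173, 916 and 939 on PE outflow replicates 1 to 5, against 2261, 2472, 2705, 2643 and 2923 on vehicle outflow replicates 1 to 5. The groups did not overlap, and the 5 PE arrays were close to each other. The log2 fold change was -1.25 ± 0.13 (SE), a 2.37-fold lower signal, with a limma adjusted p of 5.4e-07. Cd36, the fatty acid translocase of the plasma membrane, gave 7573, 1852, 4913, 4302 and 4712 in PE outflow, against 14629, 12773, 14421, 13409.5 and 15163 in vehicle outflow. Every PE array was below every vehicle array, and replicate 2 was the lowest of its group. Cd36 was thus 3.29-fold lower (log2 fold change -1.72 ± 0.25, limma adjusted p = 2.78e-05).

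Lpl, the lipase that frees fatty acids from circulating lipoproteins, gave 19086, 30339.6, 18133, 12456 and 12301 in PE outflow, against 39246, 33167, 35314, 34946 and 33314 in vehicle outflow. Here replicate 2 came close to the vehicle arrays, while the other 4 PE arrays were far below them; the log2 fold change was -1.01 ± 0.18 (limma adjusted p = 0.000173). Fabp3, the heart's cytosolic fatty acid binding protein, fell by 0.76 on the log2 scale (limma adjusted p = 0.0015), and its replicate 2 lay within the vehicle range. Angptl4, a secreted inhibitor of Lpl and a sensitive target of the fatty acid receptors, was the 1 member of the step that was not called. Its signals were 388, 1199, 459, 382 and 444 in PE outflow, against 324, 279, 765, 396 and 560.1 in vehicle outflow. The groups overlapped, with the high value on replicate 2, and the log2 fold change of 0.24 ± 0.37 did not pass the test (limma adjusted p = 0.675); without replicate 2 it was -0.058.

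Activation and its reverse: both members were lower. Acot2, a mitochondrial thioesterase, which splits acyl-CoA and so undoes activation, gave 1807, 1343, 1633, 1049.8 and 769 in PE outflow, against 4525, 4028, 4576, 4800.3 and 5434 in vehicle outflow. Acsl1, the main long-chain acyl-CoA synthetase of the heart, gave 6770.3, 7137, 7513, 3847 and 3749 in PE outflow, against 17557, 15782, 17171, 17657 and 16439 in vehicle outflow. For both genes the groups were widely separated, and replicates 4 and 5 were the lowest. Acot2 was 3.65-fold lower (log2 fold change -1.87 ± 0.18, limma adjusted p = 3.14e-07) and Acsl1 3.04-fold lower (-1.61 ± 0.17, limma adjusted p = 7.26e-07).

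Carnitine shuttle: 5 members were lower and 1 was higher. Cpt2, the inner-membrane transferase that returns the acyl group to coenzyme A, gave 2275, 1546, 2141, 1719 and 1568 in PE outflow, against 5231, 4621, 5489, 4846 and 7023 in vehicle outflow. Its groups were far apart and the spread within PE was small, and it had the smallest p of the 35 members (log2 fold change -1.55 ± 0.13, limma adjusted p = 1.04e-07). Slc25a20, the carnitine-acylcarnitine carrier of the inner membrane, gave 2544, 1441, 2133, 1158 and 1079 in PE outflow, against 5384, 5020.1, 5573, 5729.8 and 6443 in vehicle outflow. The lowest arrays were again replicates 4 and 5, and the groups did not overlap (3.53-fold lower, log2 fold change -1.82 ± 0.18, limma adjusted p = 5.67e-07). Crat, which exchanges acetyl groups between coenzyme A and carnitine, gave 2378, 2324, 2485, 1101 and 1169 in PE outflow, against 6263, 4947, 5921, 6111 and 7033 in vehicle outflow. No PE array came near the vehicle range (3.36-fold lower, log2 fold change -1.75 ± 0.20, limma adjusted p = 1.9e-06).

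The outer-membrane entry enzyme has a muscle form and a liver form, and both were called lower. Cpt1b, the muscle form and the form that prevails in the adult heart, averaged 4959 ± 2247 in PE outflow and 16536 ± 1439 in vehicle outflow (SD, n = 5 each), a log2 fold change of -1.88 ± 0.24 (limma adjusted p = 6.57e-06). Cpt1a, the liver form, averaged 1435 ± 151 in PE outflow and 2066 ± 369 in vehicle outflow, a log2 fold change of -0.51 ± 0.14 (limma adjusted p = 0.0081). The difference between these 2 fold changes was not tested.

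Crot was the only member called higher. It encodes carnitine octanoyltransferase, a peroxisomal enzyme that prepares medium-chain products of peroxisomal oxidation for export. It gave 1795, 1073, 1692, 1930.5 and 2371 in PE outflow, against 823, 972, 1006, 948 and 619.7 in vehicle outflow. All 5 PE arrays were above all 5 vehicle arrays, with replicate 2 just above them, and the signal was 1.98-fold higher (log2 fold change 0.98 ± 0.17, limma adjusted p = 0.000109). Crot's 2 other, dimmer probe sets were not called, with log2 fold changes of 0.10 and -0.22, and the mean over its 3 probe sets gave 0.29 (limma adjusted p = 0.213); which of them reads the transcript best was not tested.

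Beta-oxidation: all 14 members were lower, by log2 fold changes between -1.97 and -1.18. Ech1, which moves double bonds of unsaturated acyl chains, gave 10485, 7256, 9846, 7544 and 5756 in PE outflow, against 25375, 20904, 23673, 24392 and 25819.6 in vehicle outflow. Decr1, the mitochondrial dienoyl-CoA reductase, gave 5472, 3955, 4789, 3203 and 3079 in PE outflow, against 12680.3, 11169, 12085, 13095 and 10948 in vehicle outflow. Eci2, an enoyl-CoA isomerase, gave 4463, 3688, 4559, 2917 and 2693 in PE outflow, against 10924, 8923, 10293, 10436 and 10071 in vehicle outflow. In these 3 genes, all auxiliary enzymes for unsaturated fatty acids, the groups were well separated and replicates 1 and 3 were the highest of PE outflow. Their log2 fold changes were -1.58 ± 0.14, -1.58 ± 0.14 and -1.49 ± 0.14, with limma adjusted p of 1.18e-07, 1.41e-07 and 1.83e-07. Eci1, the other isomerase of the step, had a log2 fold change of -1.53.

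The acyl-CoA dehydrogenases, which open each cycle, were lower at every chain length: the log2 fold change was -1.62 for Acadvl (very long chain), -1.18 for Acadl (long), -1.54 for Acadm (medium) and -1.83 for Acads (short). Acadl had the smallest change of the 14, and its replicate 2, at 29236, lay nearest to the vehicle arrays, whose range was 33839.5 to 39503. The hydratase Echs1 had a log2 fold change of -1.54 and the thiolase Acaa2, which ends the cycle, -1.59. Hadh, the short-chain hydroxyacyl-CoA dehydrogenase, had the greatest change of the step: it averaged 5554 ± 2092 in PE outflow and 20618 ± 1473 in vehicle outflow (SD, n = 5 each), 3.91-fold lower (limma adjusted p = 1.92e-07). Ehhadh, the peroxisomal bifunctional enzyme, was dim, averaging 78.8 ± 31.3 in PE outflow and 305 ± 87.2 in vehicle outflow, and was also lower (log2 fold change -1.81 ± 0.23, limma adjusted p = 4.92e-06).

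Hadha and Hadhb encode the alpha and beta subunits of the mitochondrial trifunctional protein, which carries out the later reactions on long chains, and are transcribed away from each other on chromosome 6. Hadha averaged 4109.8 ± 1235 in PE outflow and 12575 ± 942 in vehicle outflow (SD, n = 5 each), and Hadhb averaged 13676 ± 3970.3 in PE outflow and 35132 ± 2959.6 in vehicle outflow. Both were called lower, with log2 fold changes of -1.66 ± 0.16 and -1.40 ± 0.15 and limma adjusted p of 3.67e-07 and 8.72e-07. Their RefSeq promoter windows (250 bases before to 50 after the gene start, build GRCr8) share 200 bases, chr6:31907551-31907750, which are upstream of both starts and are shown because they lie between 2 members that were both lower, as were all 14 of the step; the plus strand, which is that of Hadha, is printed, with capitals for its 1 match to the GC box GGGCGG or its complement, a motif known as a binding site of Sp1.
Hadha and Hadhb shared upstream: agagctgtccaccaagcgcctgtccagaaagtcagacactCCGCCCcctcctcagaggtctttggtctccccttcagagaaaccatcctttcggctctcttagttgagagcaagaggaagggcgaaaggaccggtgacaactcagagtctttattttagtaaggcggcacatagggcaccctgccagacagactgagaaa

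Electron transfer: all 3 members were lower. Etfdh, the membrane dehydrogenase that passes electrons from the flavoprotein to ubiquinone, gave 4693, 1803, 3874, 2069 and 1817 in PE outflow, against 10157, 9109.7, 10011, 9865 and 9548 in vehicle outflow. Etfa, the alpha subunit of the flavoprotein, gave 9468, 5275, 5882, 4525 and 4959 in PE outflow, against 15564, 13806, 14847, 14058 and 13782 in vehicle outflow. Etfb, the beta subunit, gave 7958, 15029, 7115, 4402 and 4159 in PE outflow, against 18713, 17736, 16652, 18849.8 and 22182 in vehicle outflow. The groups did not overlap for any of them, but replicate 2 took opposite places: it was the lowest PE array for Etfdh and the highest for Etfb. The log2 fold changes were -1.89 ± 0.21, -1.31 ± 0.15 and -1.44 ± 0.24 (limma adjusted p = 1.44e-06, 1.78e-06 and 8.48e-05).

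Control of flux: 4 members were lower and 1 was not called. Acacb, the mitochondrial form of acetyl-CoA carboxylase, makes the malonyl-CoA that inhibits the entry step, and Mlycd breaks malonyl-CoA down; both were lower. Acacb gave 105, 45.9, 102, 73 and 47.4 in PE outflow, against 386, 380.04, 299, 353 and 460.1 in vehicle outflow, and Mlycd gave 1172, 1410.1, 1079, 678 and 914 in PE outflow, against 3509, 3525, 4406, 3458 and 5759.5 in vehicle outflow. Each group of PE arrays lay far below its vehicle arrays. Acacb was dim and 4.46-fold lower (log2 fold change -2.16 ± 0.22, limma adjusted p = 5.35e-07), the greatest change of the 35 members with 16 added to the signal but not with 64, and Mlycd was 3.92-fold lower (-1.97 ± 0.19, limma adjusted p = 2.73e-07).

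Ucp3, an uncoupling protein of muscle mitochondria that follows fatty acid supply, gave 173, 166, 106, 117 and 63.3 in PE outflow, against 484, 356, 475, 293 and 379 in vehicle outflow. The groups did not overlap, and the log2 fold change was -1.59 ± 0.21 (limma adjusted p = 8.19e-06). Ucp2, its widely expressed relative, gave 2758, 2921, 2615, 1686 and 1519 in PE outflow, against 2641, 3020.1, 2873, 2079 and 3407 in vehicle outflow. Replicates 1, 2 and 3 lay among the vehicle arrays and replicates 4 and 5 below them, and the log2 fold change of -0.32 ± 0.18 did not pass the test (limma adjusted p = 0.209). Pdk4, the kinase that shuts off pyruvate oxidation when fat is burned, averaged 2163 ± 845 in PE outflow and 6405 ± 2887 in vehicle outflow (SD, n = 5 each), a log2 fold change of -1.53 ± 0.32 (limma adjusted p = 0.000908). Pdk4 also varied within groups: replicate 3 was the highest array in all 4 groups, at 3667 in PE outflow, 11343 in vehicle outflow, 8310.4 in PE apex and 8799 in vehicle apex. Etfdh was likewise highest on 1 number, replicate 1, in all 4 groups. PE and vehicle replicates of the same number are different rats, and the cause of these shared numbers was not tested.

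**Figure D2:**
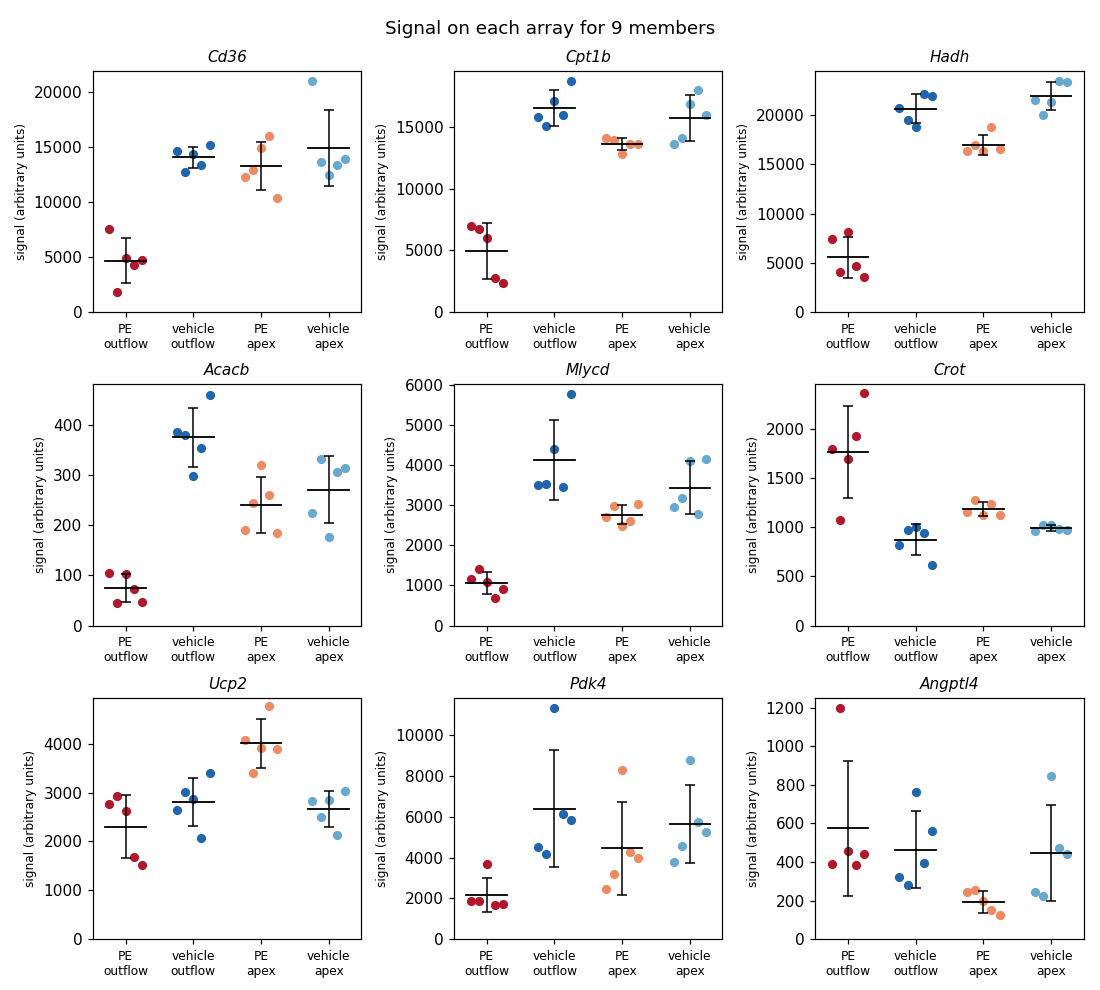
Signal (arbitrary units, linear axis from 0) on each array for 9 members in PE outflow, vehicle outflow, PE apex and vehicle apex; points are arrays, in the order of the replicate numbers, lines are means and bars are SD (n = 5). For Cd36, Cpt1b, Hadh, Acacb and Mlycd the PE outflow points lie below all other points, for Crot above those of vehicle outflow, and for Ucp2 the PE apex points lie above those of vehicle apex.

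The plot of 9 members by group shows the range of patterns in the list, including the 3 that were not lower. In the sets annotated to a member besides the brightest, 14 in number, 8 were lower and 6 were not called. The 6 were dim sets of Acsl1, Crot, Hadha, Hadh and Eci1. Log2 fold changes of the 14 ran from -2.68 to 0.34, of which 12 were negative and 2 positive. Over all probe sets 14.9% were lower and 19.6% higher. A further 3 sets annotated to 2 genes, and so not counted, had log2 fold changes of -1.24 (Eci2 with Eci3), -0.95 (Cd36 with Cd36l1) and -2.41 (Acot2 with Acot1).

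Of the marker lists of cell types, cardiomyocyte markers moved with the members. Markers of fibroblasts, macrophages and adipocytes mostly moved the other way, and endothelial markers were mixed. By the rule used for the members, 18% of all genes were lower and 26.3% higher in PE outflow. Of the 11 measured cardiomyocyte markers 10 were lower in PE outflow, led by Ryr2 (log2 fold change -1.50) and Ckm (-1.52), with a median of -0.86. Their summed signal was 176896 to 480892 in PE outflow, against 389141 to 459209 in vehicle outflow. The 480892 was that of PE outflow replicate 2, and the other PE outflow arrays ran from 176896 to 248699. These cardiomyocyte values, and the centring on these markers below, rest on the brightest set of each gene. Dimmer sets of some markers were lower by more, with log2 fold changes of -3.44 for Myh6 (-0.65 for its brightest), -1.16 for Myl2 (-0.44), -1.67 for Pln (-0.94) and -1.90 for Ryr2 (-1.50). Others were lower by less, at -0.72 for another dimmer set of Pln and -0.50, not called, for that of Tnnt2 (-0.59 for its brightest). Of 10 fibroblast markers 9 were higher, those with the smallest p being Fap, Dpt and Pi16 (log2 fold changes 1.61, 1.46 and 2.20) and the one with the greatest change Postn (2.81), with summed signals of 172739 to 199020 in PE outflow, against 68603 to 100261 in vehicle outflow. All 8 macrophage markers were higher (15066 to 36090.2 summed in PE outflow, 10100 to 15809.6 in vehicle outflow). The 15066 was that of PE outflow replicate 2, and the other PE outflow arrays ran from 28477 to 36090.2. Also higher were 4 of 5 adipocyte markers (2311 to 7017 in PE outflow, 634 to 1031 in vehicle outflow), which were Plin1, Cidec, Adipoq and Cfd (log2 fold changes 3.45, 3.32, 3.15 and 1.96). Of 8 endothelial markers, 2 were higher, 1 lower and 5 not called (20559.9 to 24390 in PE outflow, 14234 to 18528 in vehicle outflow). No list's summed signal was near 0 in any group, but the adipocyte list was dim in vehicle rats. Its mean log2 signal averaged 5.72 in vehicle apex and 6.08 in vehicle outflow. The macrophage list stood at 9.76 and 9.79 in the same groups. The adipocyte fold changes were thus measured against a dim vehicle list, and Lep, an adipocyte marker, was dim in all groups. The part of these cell types in the members' change was not tested beyond the values that follow.

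Relative to vehicle outflow, the mean log2 signal of the 35 members stood at -1.05, -1.28, -1.13, -1.73 and -1.82 on PE outflow replicates 1 to 5. The mean of the cardiomyocyte markers stood at -0.83, 0.05, -0.86, -1.27 and -1.43 on the same arrays. The arrays low in one list were low in the other, except for replicate 2. The members' mean minus the markers' mean was -2.60, -3.71, -2.65, -2.83 and -2.76 on PE outflow replicates 1 to 5, against -2.45, -2.40, -2.30, -2.42 and -2.31 on vehicle outflow replicates 1 to 5, so every PE outflow array was lower on this scale too, by a far smaller distance on 4 of the 5.

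**Figure D3:**
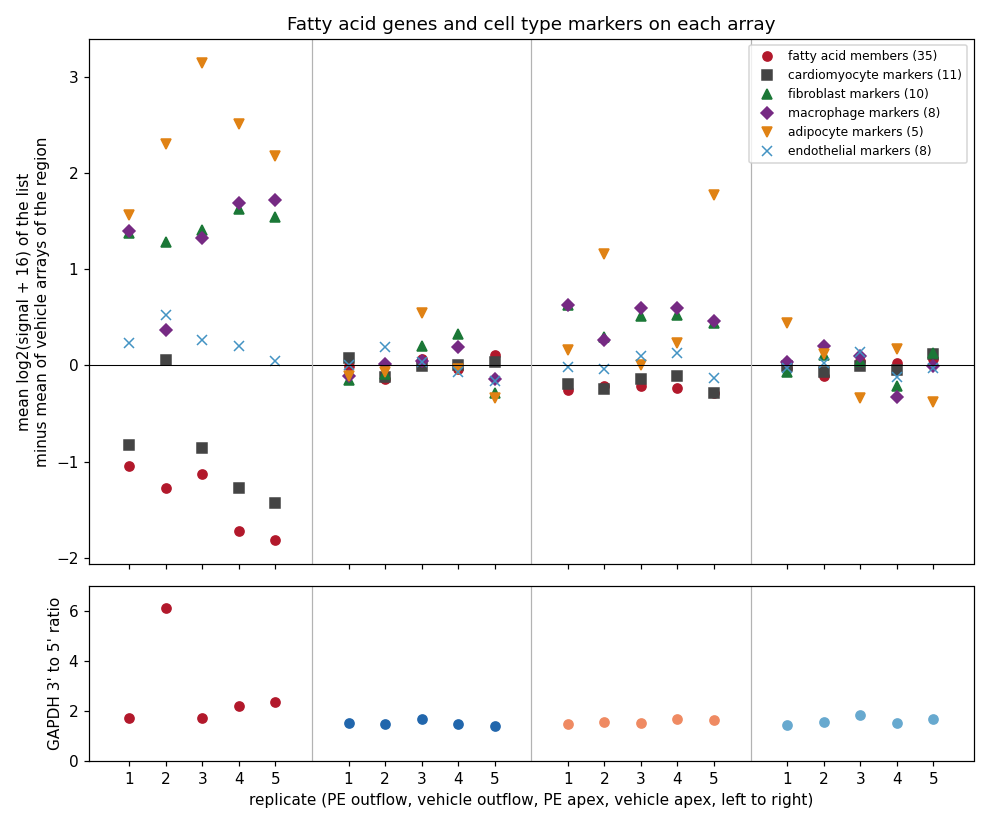
Upper panel: mean log2(signal + 16) of the 35 members and of 5 marker lists on each array, minus the mean of the vehicle arrays of the same region. Lower panel: GAPDH 3′ to 5′ ratio of each array, by group from left to right PE outflow, vehicle outflow, PE apex and vehicle apex. Members lie between -1.82 and -1.05 in PE outflow, cardiomyocyte markers between -1.43 and 0.05, and the ratio of 6.12 belongs to PE outflow replicate 2.

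The plot of lists by array sets the members beside the marker lists and the quality ratio. When each array was centred on the mean of the cardiomyocyte markers, an alternative chosen after seeing the data, 25 members remained lower and 3 were higher (Angptl4, Crot and Ucp2). In that setting 3% of all genes were lower and 72.2% higher, and the median log2 fold change was -0.71 over the members and 0.97 over all genes. Leaving out PE outflow replicate 2 as well gave 24 members lower and 4 higher (Cpt1a in addition), against 2.89% and 82.4% of all genes, with medians of -0.45 and 1.16. In this last setting Mlycd, Acacb and Cpt1b had the greatest decreases, at -0.99, -0.94 and -0.93, whereas Cd36 (-0.32), Lpl (-0.11), Slc27a1 (-0.19), Hadhb (-0.24), Etfa (-0.17) and Pdk4 (-0.40) were no longer called and Fabp3 (0.14) and Cpt1a (0.60) were positive.

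With PE outflow replicates 1 and 3 alone, the arrays whose GAPDH ratio lay within the range of the other groups, 31 members were lower and 1 higher, against 14.2% and 17.5% of all genes. The median over members was then -1.22 and over all genes 0.04, and Pdk4 was the member no longer called (log2 fold change -1.18, limma adjusted p = 0.0694). With both arrays of PE replicate 2 left out, 32 were lower and 1 higher. The median was then -1.55 over the members and 0.06 over all genes, and the share of all genes called is not given.

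**Figure D4:**
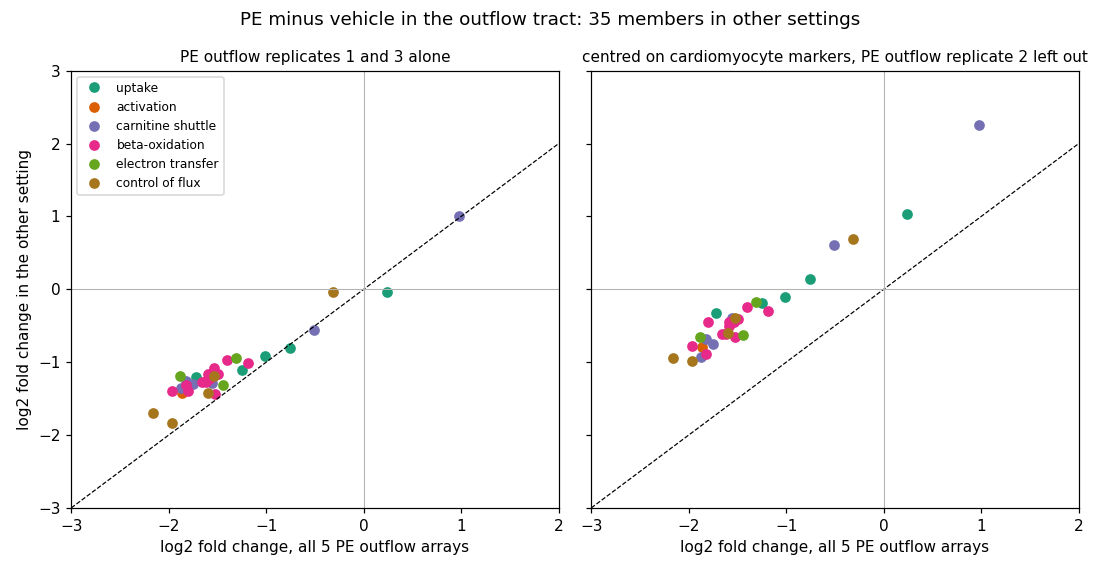
Log2 fold change of PE over vehicle in the outflow tract for the 35 members, with all 5 PE outflow arrays (x axis) against PE outflow replicates 1 and 3 alone (left) and against arrays centred on cardiomyocyte markers without PE outflow replicate 2 (right); colours mark steps and the dashed line marks equal values. On the left most points lie slightly above the line and Angptl4 crosses 0; on the right all lie above it, and Fabp3, Cpt1a and Ucp2 cross 0.

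In the apex no member was called between PE and vehicle rats, and 0.0211% of all genes (3) were. At an unadjusted p below 0.05 stood 6 of 35 members (17.1%), against 8.29% of all genes. The log2 fold changes were small and mostly negative: 33 members had a negative value, with a median of -0.26, against 0.00 over all genes. For 15 members every PE apex array lay below every vehicle apex array, and for 2 (Crot and Ucp2) every PE array lay above; each pattern held for 2.19% of all genes. The 11 cardiomyocyte markers had a median of -0.20 in the apex, and none was called.

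Of the apex values the smallest p was that of Slc27a1, with 1961, 1971, 1489.7, 1625 and 2004 on PE apex replicates 1 to 5, against 2052, 2292, 2482, 2644 and 2637 on vehicle apex replicates 1 to 5. The PE arrays were all below the vehicle arrays, by a small margin, and the log2 fold change was -0.42 ± 0.13 (limma adjusted p = 0.367). Ucp2 gave 4067, 3394, 3915, 4779 and 3892 in PE apex, against 2836, 2491, 2858, 2121 and 3029 in vehicle apex. All PE arrays were above all vehicle arrays (log2 fold change 0.59 ± 0.18, limma adjusted p = 0.388). Angptl4 gave 243, 257, 198, 152 and 123 in PE apex, against 244, 225, 845, 474 and 443 in vehicle apex; the groups overlapped, the vehicle arrays spread widely, and the log2 fold change of -1.02 ± 0.37 had a limma adjusted p of 0.492.

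**Figure D5:**
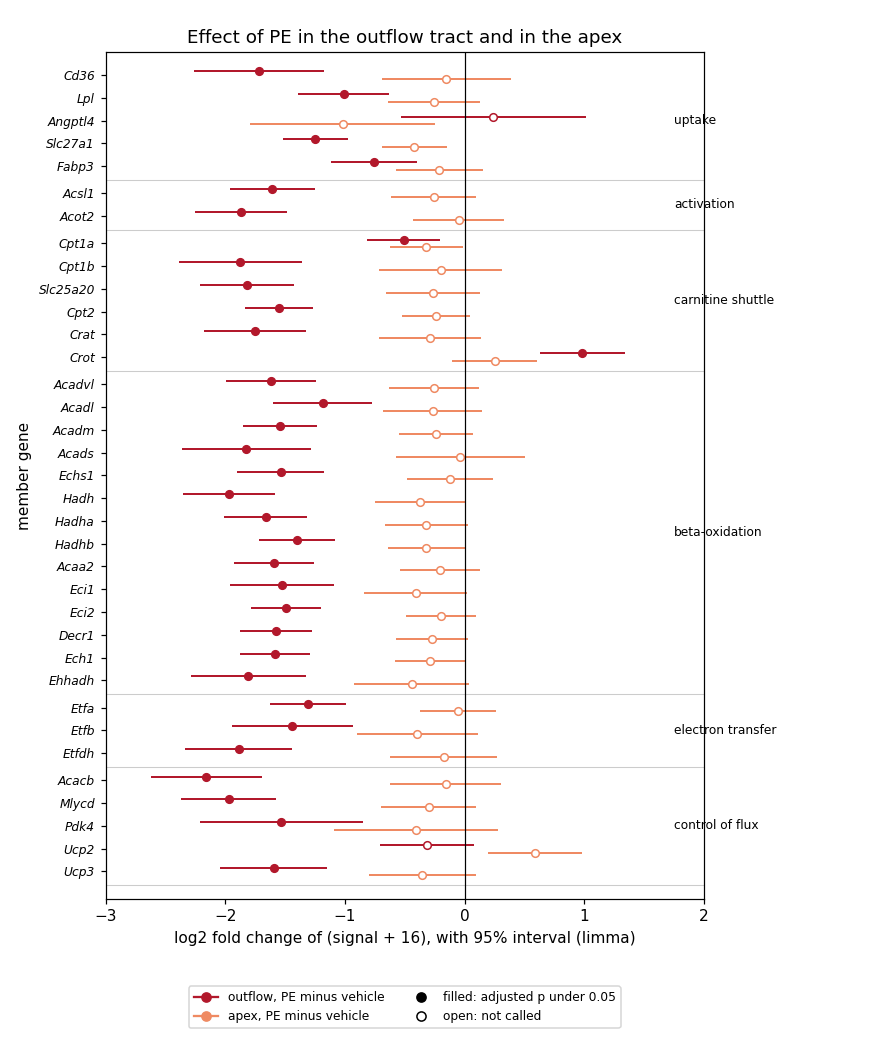
Log2 fold change of PE over vehicle in the outflow tract (dark) and in the apex (light) for each member, with 95% intervals from limma (n = 5 arrays a group); filled points passed an adjusted p of 0.05. Outflow points are filled and negative for 32 members, of which Fabp3 and Cpt1a turned positive when arrays were centred on cardiomyocyte markers, and no apex point is filled.

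The plot of both PE effects shows the outflow change set against the apex change of each gene. The difference between them, outflow minus apex, was tested as the interaction in the same model. It was negative and called for 30 members, positive and called for 1 (Crot) and not called for 4 (Angptl4, Fabp3, Cpt1a and Pdk4), whereas 10.2% of all genes were called lower and 14.1% higher. Fabp3 was called lower in 6 of 33 other settings. These included the settings without PE outflow replicate 2, with PE outflow replicates 1 and 3 alone and with array weights. In 2 settings, those centred on cardiomyocyte markers, its value turned positive. The median was -1.30 over the members and 0.10 over all genes. Acacb had a difference of -2.00 ± 0.31 (limma adjusted p = 0.0005), Acot2 one of -1.82 ± 0.25 and Acads one of -1.79 ± 0.36; that of the dim Acacb was the greatest with 16 added to the signal, but with 64 added it was -1.55, smaller than those of Acot2 (-1.78) and Acads (-1.76). Crot had a difference of 0.73 ± 0.23 (limma adjusted p = 0.0359), Lpl one of -0.75 ± 0.25 (limma adjusted p = 0.0443) and Etfb one of -1.05 ± 0.34 (limma adjusted p = 0.0364); all 3 stood close to the threshold and lost their call in most of the settings that left out 1 array. Ucp2 was called although neither of its PE effects was, with a difference of -0.90 ± 0.26 (limma adjusted p = 0.0203). Its call was lost with PE outflow replicates 1 and 3 alone (-0.63, limma adjusted p = 0.0901) and when arrays were centred on cardiomyocyte markers, with all arrays (-0.23) or without PE outflow replicate 2 (-0.098). With PE outflow replicates 1 and 3 alone, 30 members were lower and 1 higher in this test, against 8.04% and 8.38% of all genes. Centred on cardiomyocyte markers, 10 members were lower and 2 higher, against 1.15% and 34.6% of all genes; without PE outflow replicate 2 in addition, 18 were lower and 3 higher, against 1.88% and 64.2%.

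Outflow tract and apex were also compared within each treatment. In PE rats 32 members were lower in the outflow tract than in the apex, 2 were higher (Angptl4 and Crot) and Cpt1a was not called, against 15.5% of all genes lower and 22.3% higher. For 28 members all PE outflow arrays lay below all PE apex arrays and for 1 (Angptl4) all lay above, against 11.1% and 16.4% of all genes. With PE outflow replicates 1 and 3 alone, 31 members were lower and 1 higher, against 11.1% and 12.7% of all genes. Centred on cardiomyocyte markers, 22 were lower and 2 higher (2.95% and 57.7% of all genes), and without PE outflow replicate 2 in addition 22 were lower and 3 higher (2.96% and 74.4%). Angptl4 averaged 574 ± 351 in PE outflow and 195 ± 57.3 in PE apex (SD, n = 5 each), a log2 fold change of 1.38 ± 0.37 (limma adjusted p = 0.00707); with PE outflow replicates 1 and 3 alone it was 1.10 (limma adjusted p = 0.113). Pdk4 was called lower in this comparison (-0.98 ± 0.32, limma adjusted p = 0.0283) but lost its call in 10 of 24 settings, among them those without PE outflow replicate 1, 4 or 5 or PE apex replicate 3 or 4, with array weights, with the GAPDH ratio as covariate and with PE outflow replicates 1 and 3 alone (-0.63, limma adjusted p = 0.41). Fabp3 lost its call without PE outflow replicate 5. Cpt1b averaged 4959 ± 2247 in PE outflow and 13621 ± 496 in PE apex.

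In vehicle rats no member was called between outflow tract and apex, and 0% of all genes were. For none of the 35 did the 2 regions separate fully, while all outflow arrays lay below all apex arrays for 0.429% of all genes and above them for 0.295%. The members' log2 fold changes, outflow minus apex, ran from -0.20 (Crot) to 0.47 (Acacb). At an unadjusted p below 0.05 stood 1 of 35 members (2.86%), against 3.14% of all genes by limma. These comparisons share arrays: PE outflow and vehicle outflow serve in the comparisons by treatment and by region.

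Other genes of fatty acid handling were taken from a list of 47, of which 43 were measured. In the outflow tract 28 of them were lower in PE, 5 were higher and 10 were not called, with a median log2 fold change of -0.71. Among all genes 18% were lower and 26.3% higher, so the count higher was below that background. The lower genes with the smallest p included Acat1, the mitochondrial acetoacetyl-CoA thiolase (4533 ± 907 in PE outflow, 12816 ± 860.2 in vehicle outflow, log2 fold change -1.52 ± 0.13), Hsd17b10, a mitochondrial hydroxyacyl-CoA dehydrogenase (-1.45), Acot13, a thioesterase (-1.74), Acsl6, an acyl-CoA synthetase (-1.71), and Pnpla2, the lipase that opens triglyceride breakdown (-1.36). Each had a limma adjusted p of 2.39e-06 or less.

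The 5 genes that were higher act in synthesis or activation, but not all listed genes with such roles were higher. Gpam and Dgat1 were lower (log2 fold changes -1.24 and -1.05), and Acaca and Dgat2 were not called (0.12 and -0.23). Fasn, the fatty acid synthase, averaged 1055 ± 169 in PE outflow and 335 ± 32.9 in vehicle outflow (SD, n = 5 each), 3.03-fold higher (log2 fold change 1.60 ± 0.16, limma adjusted p = 4.4e-07). Scd, the stearoyl-CoA desaturase, was dim in vehicle outflow. It averaged 327 ± 242 in PE outflow and 27.5 ± 11 in vehicle outflow (2.81 ± 0.30, limma adjusted p = 1.03e-06). The synthetases Acsl3, Acsl4 and Acsl5 had log2 fold changes of 1.24, 1.23 and 0.89, while that of the member Acsl1 was -1.61 on the same arrays. A dimmer probe set of Acsl5 was not called (0.0075, limma adjusted p = 0.984). The adipocyte markers were higher on the PE outflow arrays, and their part in the 5 higher genes was not tested. In the apex none of the 43 was called.

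Of 11 regulators of these genes, 7 were lower in PE outflow, 1 was higher and 3 were not called. By the same rule 18% of all genes were lower and 26.3% higher. Ppara, the fatty acid receptor, was dim and had a log2 fold change of -2.15 ± 0.32 (limma adjusted p = 2.93e-05), the receptor Esrra -1.66 ± 0.20 (2.75e-06), and the coactivators Ppargc1a and Ppargc1b -1.40 and -1.41. Nrip1, a corepressor of the same receptors, was the one that was higher (0.90 ± 0.15, limma adjusted p = 8.13e-05).

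Receptors of the Ppara and Esrra type bind variants of the letters AGGTCA, so these were looked for on both strands of the promoter windows from RefSeq (build GRCr8). Windows were available for 29 of the 35 members; Acaa2, Acadl, Cpt1b, Decr1, Ech1 and Lpl had none in the table used. AGGTCA was present in 8 of 29 windows (27.6%), against 16.2% of all 33469 windows. The longer AAGGTCA, which contains it, was in 2 (6.9%), against 4.61%, while TNAAGGTCA (1.2% of all windows) and 2 copies of AGGTCA in tandem with 1 base between them (0.0538%) were in none of the 29. GGGCGG was in 18 (62.1%), against 33.1% of all windows. A match is a description of the letters and not of a bound site.

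The 8 members that hold AGGTCA are shown for the context of the match; all 8 were lower in PE outflow, as were 32 of the 35 members. For each, the match nearest to the gene start is printed with up to 10 bases on either side, on the strand that reads AGGTCA, in capitals. Measured along the gene, the first base of the match lay at -3 in Acacb (window chr12:48138165-48138464, minus strand), -17 in Acadvl (chr10:55236656-55236955, minus), -93 in Echs1 (chr1:204333457-204333756, minus), -94 in Eci1 (chr10:13961000-13961299, plus), 18 in Eci2 (chr17:30075516-30075815, plus), 43 in Hadhb (chr6:31907451-31907750, minus), -242 in Slc27a1 (chr16:18312717-18313016, plus) and -50 in Ucp3 (chr1:164227660-164227959, plus). In Eci1, Eci2, Hadhb and Slc27a1 the match reads on the strand opposite to the gene.
Acacb: tcccgtgaacAGGTCAtgattcccag
Acadvl: acgggagaagAGGTCAgtggtcaagg
Echs1: caccccgcccAGGTCAcgggtacatc
Eci1: gcccttcaggAGGTCAagatcagcca
Eci2: ctggatgctgAGGTCAaactgagctc
Hadhb: gaAGGTCAagtccagact
Slc27a1: ggacagccagAGGTCAatgaggac
Ucp3: attaggtttcAGGTCAgctggtgcat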

How the data were processed

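The deposited values were signal intensities on a linear scale, 1 per probe set and array, as the authors deposited them; the software that made them is not given in the sources used here. Per the labels' protocols, 5 microgram of total RNA per sample was made into biotin-labelled cRNA. After leaving out 2% of values at either end, every array had a mean signal of 500.2, and the median signal was 123 to 159. Precision rests on how many arrays a group holds. Groups followed the sample titles, since a text field on treatment gives vehicle for all 20 samples, and the vehicle volume reads 0.15 ml per 100 g in one field and 0.01 ml in the design text.

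Leaving out 57 control sets, 31042 probe sets were tested: 20826 carried 1 gene symbol, 436 several and 9780 none. Values were analysed as log2(signal + 16) with limma 3.58.1 in R 4.3.3, in a 4-group model over 20 arrays, with Benjamini-Hochberg adjustment over all probe sets. Within a treatment, apex and outflow arrays of 1 replicate number deviated together (correlations 0.181 to 0.283, each number highest with its own), and the rat was the block in an alternative; PE and vehicle numbers (-0.283 to 0.154) do not pair rats. The fit was tested on simulated data. The members and lists were chosen with earlier results of these data known. Values per array are given for up to 3 members a step with the smallest p in the outflow comparison, and for those that rose or were not called there; of the other genes, up to 8 with the smallest p and those that rose are named. Alternatives changed the normalization, the filter on dim sets, the added constant, the samples and covariates, and the probe sets of a gene. Genes named beyond these rules were chosen after their values were seen.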

Additional observations from a re-analysis of the deposited data

Results flagged for a closer look

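A single array stood far from the other 4 of its group in 9 of 140 groups of 5 (35 members in 4 groups), by Dixon's test with a limit of 0.71. By chance about 1 in 20 would be flagged, so the share found was close to chance. Members share the same arrays, so the flags are not independent. In PE groups these were Angptl4 on outflow replicate 2, with a signal of 1199 and the highest GAPDH ratio of the arrays, Pdk4 on outflow replicate 3 (3667) and Hadh on apex replicate 4 (18732.5). In vehicle groups they were Acads on outflow replicate 5 (7794), Hadha on outflow replicate 2 (10922, the low one), Cd36 on apex replicate 1 (20999), Acadl on apex replicate 5 (40489), Acads on apex replicate 3 (7537) and Ehhadh on apex replicate 5 (336).

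The effect of PE differed between outflow tract and apex, by the interaction in the limma model, for 31 members (30 lower, 1 higher), where 10.2% of all genes were lower and 14.1% higher; centred on cardiomyocyte markers it was called for 10 lower and 2 higher, or 18 and 3 without PE outflow replicate 2. The difference of the log2 fold changes, outflow minus apex, was in uptake -1.57 for Cd36, -0.75 for Lpl and -0.83 for Slc27a1, and in activation and its reverse -1.35 for Acsl1 and -1.82 for Acot2. In the carnitine shuttle it was -1.68 for Cpt1b, -1.55 for Slc25a20, -1.31 for Cpt2, -1.46 for Crat and 0.73 for Crot. In beta-oxidation it ranged from -1.79 for Acads, through -1.60 for Hadh, -1.42 for Echs1, -1.39 for Acaa2, -1.36 for Ehhadh, -1.36 for Acadvl, -1.34 for Hadha, -1.30 for Acadm, -1.30 for Decr1, -1.29 for Ech1, -1.29 for Eci2, -1.12 for Eci1 and -1.08 for Hadhb, to -0.92 for Acadl. In electron transfer it was -1.25 for Etfa, -1.05 for Etfb and -1.71 for Etfdh, and in the control of flux -2.00 for Acacb, -1.67 for Mlycd, -0.90 for Ucp2 and -1.24 for Ucp3. Without PE outflow replicate 2, and no centring, 31 members were lower and 1 higher. The median difference was then -1.30 over the members and 0.07 over all genes, and the share of all genes called is not given.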

How the results depend on the processing

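Apart from centring on cardiomyocyte markers, given further on, other normalizations, filters, covariates and sample sets kept 31 to 32 members lower in the outflow tract (32 without any 1 array), 0 called in the apex, 28 to 31 lower in the difference, and 30 to 33 lower in outflow against apex of PE rats. Except for PE outflow replicates 1 and 3 alone, the share of all genes called in these settings is not given. With the rat as a replicate block the counts were unchanged (32 lower and 1 higher, 0, 30 and 1, 32 and 2). The count higher was less stable. In the outflow tract it was 0 with the mean over probe sets. In the difference it was 0 with median centring and with the mean over probe sets, and 0 to 1 when 1 array was left out. In outflow against apex of PE rats it was 1 with median centring, only the groups compared, the GAPDH ratio as covariate, PE outflow replicates 1 and 3 alone or the mean over probe sets, and 1 to 2 when 1 array was left out.

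Some single values changed sign. Angptl4 in the outflow tract was -0.43 with the GAPDH ratio as covariate, -0.041 with PE outflow replicates 1 and 3 alone and -0.058 with both arrays of PE replicate 2 left out; with 1 array left out it was -0.058 (PE outflow replicate 2) to 0.44. In the apex, Etfa was 0.062 with quantile normalization, Acsl1 0.12 with the mean over probe sets, and Acads -0.072 to 0.054 with 1 array left out, positive without vehicle apex replicate 3 or PE apex replicate 4. Crot in outflow against apex of PE rats was -0.068 with the mean over probe sets.

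Centring on cardiomyocyte markers, chosen after seeing the data, moved the most values. The difference then had 10 lower and 2 higher, or 18 and 3 without PE outflow replicate 2. The outflow comparison had 3 or 4 higher, and the apex 0 or 1 higher (Ucp2, 0.78). For the apex the share of all genes called in these settings is not given, and the median over all genes was 0.20. Values with all arrays, and without replicate 2, were 0.11 and 0.14 for Fabp3, 0.36 and 0.60 for Cpt1a and 0.55 and 0.69 for Ucp2 in the outflow tract. In the difference they were 0.13 and 0.16 for Fabp3, 0.48 and 0.73 for Cpt1a and, only without replicate 2, 0.038 for Slc27a1. In outflow against apex of PE rats they were 0.083 and 0.11 for Fabp3 and, only without replicate 2, 0.12 for Slc27a1. In the apex both settings gave 0.043 for Cd36, 0.15 for Acot2, 0.16 for Acads, 0.074 for Echs1, 0.14 for Etfa, 0.022 for Etfdh and 0.039 for Acacb. The cause of these changes was not tested. No value exists for the difference with only the groups compared, nor for vehicle regions with PE outflow replicates 1 and 3 alone. Lpl, Etfb and Crot lost their call in the difference in 21, 15 and 13 of 33 settings. Hadha lost this call with the mean over probe sets and when centred on cardiomyocyte markers with all arrays. Lpl kept it without PE outflow replicate 1 or 2 but lost it without any other array. Etfb kept it without PE outflow replicate 1, 2 or 3, PE apex replicate 3, vehicle outflow replicate 2 or 3 or vehicle apex replicate 5, and Crot without PE outflow replicate 2 or 3, PE apex replicate 2 or 4, vehicle outflow replicate 2, 3 or 4 or vehicle apex replicate 1 or 4. Crot in outflow against apex of PE rats lost its call without PE outflow replicate 4 or 5.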
